A study of Mus musculus with 12 samples.

Results

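The genes of the platelet-derived growth factor (PDGF) family were followed by RNA-seq in cultured mouse mesangial cells (MMC), the contractile cells that hold the capillary loops of the kidney glomerulus together. All 7 family genes were taken by their symbol from the 25230 genes counted. They are the 4 ligand genes Pdgfa, Pdgfb, Pdgfc and Pdgfd, the receptor genes Pdgfra and Pdgfrb, and Pdgfrl, which encodes a receptor-like protein. The cells were primary MMC from wild-type (WT) mice or from mice without a functional start of lncMGC, the long non-coding RNA that hosts the miR-379 cluster of microRNAs (KO). The KO mice came from a CRISPR-Cas9 deletion made in C57BL/6J eggs, and the KO MMC were of 1 mutant line, lncMGC-KO5. MMC of each genotype were kept in serum-depleted medium (SD) or received transforming growth factor-β (TGF-β) at 10 ng/ml for 24 h. The groups, with 3 libraries each, are called WT-SD and WT-TGF for the wild type and KO-SD and KO-TGF for the knockout. The number of mice behind each genotype is not given in the sources used here, so the p-values measure the spread between these libraries, and a difference between the cultures of the genotypes cannot be told apart from the deletion.

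PDGFs are dimers that bind receptor tyrosine kinases at the cell surface. The A and B chains are cut into their active form inside the cell by furin-like proteases. The C and D chains leave the cell in a latent form, and proteases outside the cell then remove a CUB domain from them. PDGF receptor α binds the A, B and C chains, and PDGF receptor β binds the B and D chains. Once bound, the receptors pair, phosphorylate each other and recruit SRC kinases, PI3-kinase, phospholipase C and the RAS-ERK cascade. In the developing glomerulus, PDGF-B from endothelial cells draws in mesangial cells through receptor β, and glomeruli lacking either gene have no proper mesangium. In adult kidney, PDGF-B is a known growth factor for mesangial cells, and TGF-β is the classical driver of their matrix production.

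Promoter sequence was looked up for the members because ligand genes moved in opposite directions with TGF-β. RefSeq windows of 300 bases (250 before and 50 after a start site, GRCm38.p6) were found for 4 of the 7 members, Pdgfa, Pdgfc, Pdgfd and Pdgfra. Stretches of 3 of them are shown 5′ to 3′ along the gene, with matches to the motifs searched in capitals. The stretch of Pdgfa lies on the minus strand at chr5:138995016-138995045 and holds 2 GC boxes, both on the other strand and so printed as CCGCCC. That of Pdgfc lies on the plus strand at chr3:81036166-81036415, directly before the first base of the gene, and that of Pdgfd on the plus strand at chr9:6168236-6168362, also directly before the first base of the gene.
Pdgfa: cccagcccCCGCCCtCCGCCCcttccgtcc
Pdgfc: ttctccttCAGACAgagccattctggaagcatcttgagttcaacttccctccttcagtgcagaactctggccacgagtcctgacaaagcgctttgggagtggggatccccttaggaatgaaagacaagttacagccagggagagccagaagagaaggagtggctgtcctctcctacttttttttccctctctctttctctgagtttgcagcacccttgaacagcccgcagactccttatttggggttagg
Pdgfd: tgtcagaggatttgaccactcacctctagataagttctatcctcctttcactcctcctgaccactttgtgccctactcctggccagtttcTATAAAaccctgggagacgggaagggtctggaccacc

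Both strands of the windows were searched for 5 motifs. The GC box was spelled GGGCGG and was in 35.7% of the 32851 windows searched. The Pdgfa window shown held 2 GC boxes, 93 and 86 bases before its start site, and a second Pdgfa window, at chr5:138994232-138994531, held 1 GC box 60 bases before its start. Both lie inside the annotated Pdgfa gene, whose first base on the minus strand is chr5:139000792, and not directly before it. The first of these Pdgfa windows was also rich in CpG, with 37 CpG dinucleotides against a median of 7, and the other held 24. The Pdgfc window had 8 CpG and 1 SMAD-binding element, spelled CAGACA, 242 bases before the start, a motif found in 21% of windows. The Pdgfd window had 8 CpG and 1 TATA box, spelled TATAAA, a motif found in 13.6% of windows. It lay 160 bases before the start site of the window and 37 bases before the first base of the gene. The Pdgfra window had 5 CpG and none of the 5 motifs. It lies at chr5:75152001-75152300, inside the gene, whose first base is chr5:75151322. No member window held the EGR site GCGGGGGCG, which was in 2.91% of all windows and can overlap a GC box in sequence. None held the AP-1 site TGANTCA either, a motif of 7.81% of windows. The matches describe the letters of these windows and were not tied to any binding measurement.

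Each library had between 19898050 and 22827706 counts on genes. The values are given as CPM, the counts scaled to an equal library size, with library sizes scaled by TMM, and levels are compared between genes only as RPKM, which divides by the length of the exons too. Genes with RPKM >1 in at least 1 library, 11528 in all, were tested with edgeR's quasi-likelihood test, and genes with an FDR below 5% after Benjamini-Hochberg adjustment are called higher or lower. With TGF-β, 36% of all genes tested were called higher and 36.4% lower in WT MMC, and in KO MMC these shares were 34.9% and 39.1%. KO-SD against WT-SD gave 30.9% higher and 25.2% lower, and KO-TGF against WT-TGF 27.2% higher and 27.8% lower. Scaling by library size alone moved the median log2 fold change of all genes to -0.16 with TGF-β in WT and -0.23 in KO, and the genes called with TGF-β in KO from 4028 higher and 4511 lower to 2298 higher and 6715 lower. In WT they moved from 4152 higher and 4198 lower to 2642 and 6055. KO against WT moved from 3563 higher and 2909 lower to 2444 and 4192 in SD, and from 3141 and 3201 to 1643 and 5407 with TGF-β. Where library size alone ended a call or changed a sign, its value is given beside the member. Mirg, an RNA from the end of lncMGC, had 47 to 59 counts in WT-SD, 73 to 80 in WT-TGF, 72 to 89 in KO-SD and 68 to 87 in KO-TGF. Mirg was thus not lower in the libraries labelled KO: those of KO-SD all lay above those of WT-SD, and those of KO-TGF and WT-TGF overlapped. Mirg lies outside the deleted part, and the start of lncMGC is not analysed here, so the deletion itself was not checked in these counts, and KO stands throughout for the libraries that carry this label.

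The culture markers fitted a contractile cell only in part. Of the 10 mesangial and smooth muscle markers, Acta2 (smooth muscle actin) had a mean of 1567 CPM in WT-SD and 3249 in KO-SD, and Tagln 714 and 1319. Cnn1 and Notch3 had means above 27 CPM in each group, whereas Itga8, Gata3, Des and Myh11 had means between 0.247 and 9.12 CPM, and Thy1 and Agtr1a were at or near 0. The summed level of the list was 2300 to 2450 CPM in WT-SD, 5320 to 5485 in WT-TGF, 4641 to 4819 in KO-SD and 10391 to 10471 in KO-TGF. Acta2 and Tagln made up most of this sum, and not all markers moved with it. Of the 6 that passed the RPKM limit, 3 were called higher and 2 lower with TGF-β in WT, and 4 and 2 in KO. Against WT, 5 were higher and 1 lower in KO in SD, and 4 and 2 with TGF-β. The shares of all genes are given above. Des had means of 7.67 CPM in WT-SD, 5.62 in WT-TGF, 0.529 in KO-SD and 0.247 in KO-TGF. Markers of other cells also differed between the groups. The 7 podocyte markers summed to 459 to 468 CPM in WT-SD, 455 to 474 in WT-TGF, 218 to 227 in KO-SD and 205 to 219.9 in KO-TGF, where Nphs1 and Ptpro were at 0. Of the 4 podocyte markers that passed the RPKM limit, 1 was called higher and 3 lower with TGF-β in each genotype. All 4 were called lower in KO in both conditions, beside the shares of all genes given above. The 10 macrophage markers summed to 37.0 to 40.2 CPM in WT-SD, 20.1 to 24.0 in WT-TGF, 8.13 to 9.77 in KO-SD and 2.30 to 2.68 in KO-TGF, with Adgre1, C1qa, C1qb and C1qc at 0 in both KO groups. The 8 tubular markers summed to 71.4 to 77.5, 22.1 to 25.4, 18.0 to 18.7 and 12.4 to 13.7 CPM in the same order of groups, with Slc34a1 and Umod at 0 throughout. In bulk RNA, fewer cells of a type and less RNA per cell cannot be told apart. The part of other cells in the results on the PDGF genes was not tested.

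Per exon length, Pdgfrb and Pdgfc were the leading genes of the family in every group. In WT-SD the order was Pdgfrb with 52.6 ± 0.760 RPKM (mean ± SD, n = 3), Pdgfc with 30.3 ± 0.164, Pdgfa with 26.0 ± 1.17, Pdgfd with 6.15 ± 0.658, Pdgfrl with 3.92 ± 0.218, Pdgfb with 3.54 ± 0.0955 and Pdgfra with 0.353 ± 0.0425. Pdgfrb stood at the 95.1th percentile of all tested genes there, and Pdgfb at the 29.8th. No library of a gene overlapped those of the next gene in that order, in this or in any of the other groups. In WT-TGF the order was Pdgfrb (70.0 RPKM), Pdgfc (64.2), Pdgfa (36.8), Pdgfb (16.5), Pdgfrl (7.74), Pdgfd (4.05) and Pdgfra (0.0645). In KO-SD, Pdgfb lay next to last with 0.854 RPKM, after Pdgfd with 1.83. In KO-TGF, Pdgfc led with 77.6 ± 1.22 RPKM and Pdgfrb came second with 65.4 ± 0.865. The plot of CPM by library shows each gene on its own scale.

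**Figure D1:**
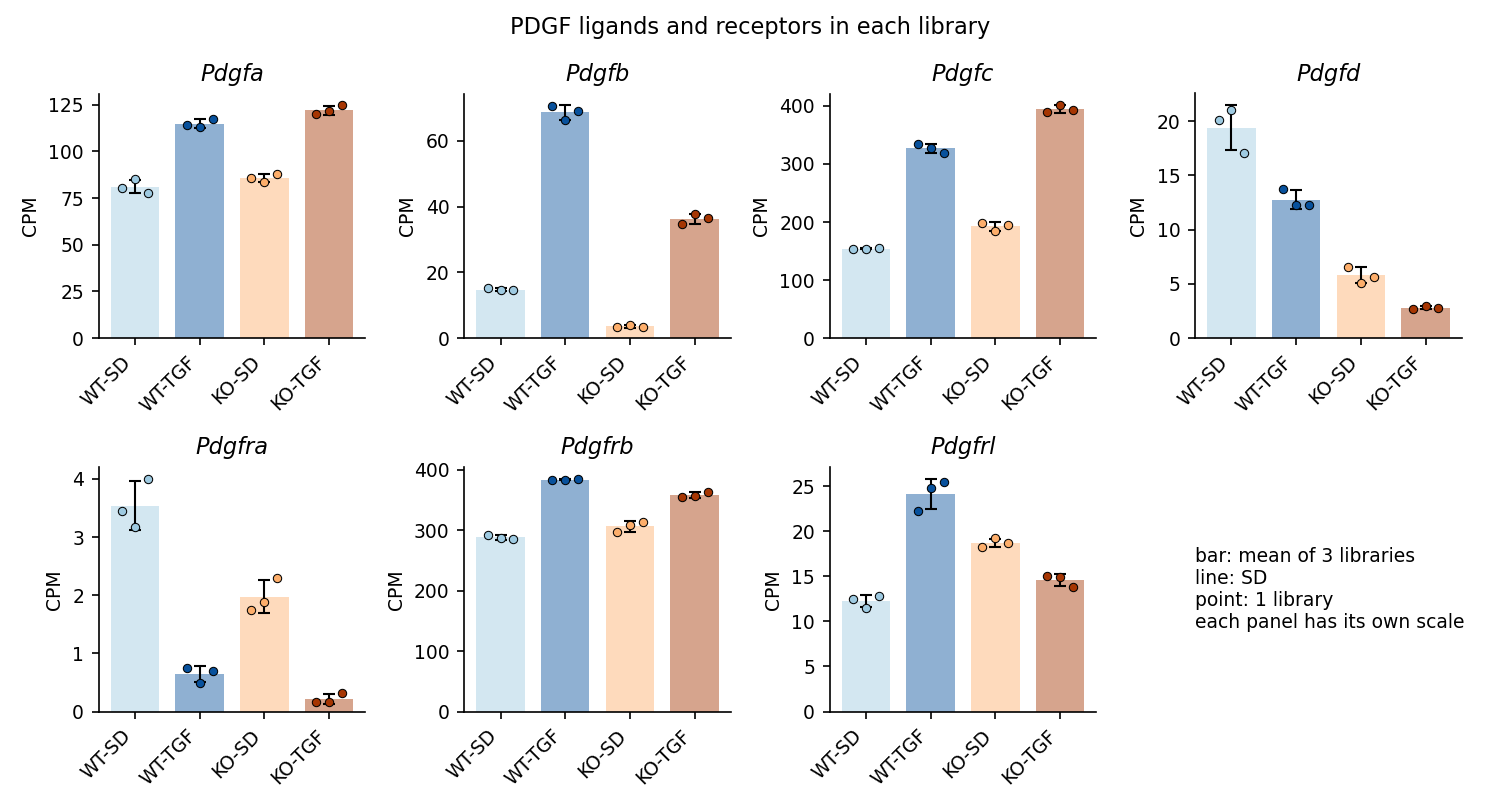
CPM of the 7 PDGF family genes in the 12 libraries, with each panel on its own linear axis from 0. Bars are means of 3 libraries, lines the SD and points single libraries. Pdgfb stands highest in WT-TGF (66.2 to 70.6 CPM) and lowest in KO-SD (3.26 to 4.01 CPM), and Pdgfrl is higher with TGF-β in WT but lower with TGF-β in KO.

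With TGF-β, all 7 family genes were called in both genotypes, 5 higher and 2 lower in WT and 4 higher and 3 lower in KO, against the shares of all genes given above. Pdgfb, Pdgfc, Pdgfa and Pdgfrb rose in both, Pdgfd and Pdgfra fell in both, and Pdgfrl rose in WT and fell in KO. Of the 7, 6 passed the RPKM limit. Pdgfra did not, and its tests came from a second fit, over the 18565 genes that had any count. The shares of all genes cover the first fit only, where 5 members were higher and 1 lower in WT, and 4 and 2 in KO. Both TGF-β comparisons have control libraries of their own.

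Pdgfb, which encodes the B chain, had the largest log2 fold change with TGF-β among the 4 ligands in both genotypes. Its 3 libraries had 15.2, 14.5 and 14.5 CPM in WT-SD and 70.6, 66.2 and 69.0 in WT-TGF. They had 3.26, 4.01 and 3.39 CPM in KO-SD and 34.8, 37.6 and 36.4 in KO-TGF. Every TGF-β library lay above every SD library, and every KO library below the WT libraries of the same treatment. Pdgfb rose 4.65-fold with TGF-β in WT, or by 2.22 ± 0.0510 on the log2 scale (fitted value ± standard error, adjusted p = 3.99e-26 by edgeR), and 10.2-fold in KO, or by 3.35 ± 0.0771 (adjusted p = 3.26e-26). The log2 response was larger in KO by 1.13 ± 0.105 (adjusted p = 6.44e-10 for the interaction). In absolute level the order was the other way, since Pdgfb gained 53.9 ± 1.31 CPM (standard error) in WT and 32.7 ± 0.852 CPM in KO. Against WT, Pdgfb was lower in KO by 2.05 ± 0.0901 on the log2 scale in SD (adjusted p = 1.76e-18) and by 0.92 ± 0.0450 with TGF-β (adjusted p = 2.72e-17).

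Endothelial cells also make Pdgfb, and the 8 endothelial markers summed to 33.2 to 33.5 CPM in WT-SD, 20.2 to 22.6 in WT-TGF, 17.2 to 18.5 in KO-SD and 9.25 to 10.9 in KO-TGF. Ehd3 made up nearly all of the sum, with means of 32.6 CPM in WT-SD, 20.8 in WT-TGF, 17.1 in KO-SD and 9.70 in KO-TGF, and was the only 1 of the 8 that passed the RPKM limit. It was called lower in KO, as Pdgfb was, and lower with TGF-β, where Pdgfb was higher. In KO-SD and WT-SD, Pecam1 had means of 0.155 and 0.060 CPM and Tek of 0.218 and 0.076. Kdr had 0.375 and 0.285, and Cdh5 0.047 and 0. The limit of detection, 3 counts in a library, is 0.130 to 0.161 CPM. Pecam1, Tek and Cdh5 were at or near it, and Kdr had few counts, 5 to 9 in WT-SD libraries and 5 to 10 in KO-SD. No direction is read from these 4 markers. Cdh5, Emcn and Tie1, which define endothelial cells, were at 0 in all libraries of both TGF-β groups.

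Pdgfc, whose C chain acts mainly through receptor α, was the most abundant ligand RNA. Its libraries had 154, 153 and 155 CPM in WT-SD, 335, 327 and 318 in WT-TGF, 199, 185 and 194 in KO-SD and 389, 401 and 393 in KO-TGF. No 2 groups overlapped. It rose 2.12-fold with TGF-β in WT, by 1.08 ± 0.0285 on the log2 scale with an adjusted p = 1.25e-24, and 2.05-fold in KO, by 1.03 ± 0.0281 with an adjusted p = 2.26e-24. The difference of these responses was -0.049, with a 95% interval of -0.13 to 0.032 (adjusted p = 0.419), so it was not detected. Pdgfc was higher in KO than in WT by 0.32 ± 0.0292 in SD (adjusted p = 7.18e-11) and by 0.27 ± 0.0271 with TGF-β (adjusted p = 5.28e-10), the latter being 0.15 with library size alone.

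Pdgfa, whose A chain binds receptor α, rose by a like amount in both genotypes. It had 80.4, 85.0 and 77.8 CPM in WT-SD, 114, 113 and 117 in WT-TGF, 85.6, 83.5 and 88.1 in KO-SD and 119.9, 121 and 125 in KO-TGF. The SD and TGF-β libraries were separate, and the SD libraries of the genotypes overlapped. The log2 fold changes with TGF-β were 0.50 ± 0.0353 in WT (adjusted p = 8.76e-14) and 0.51 ± 0.0354 in KO (adjusted p = 5.57e-14). Their difference was 0.0073, with a 95% interval of -0.095 to 0.11 (adjusted p = 0.945), and -0.039 with library size alone. Between the genotypes Pdgfa differed by 0.080 in SD (95% interval 0.0061 to 0.15, adjusted p = 0.0605; 0.0046 with library size alone) and was higher in KO by 0.088 ± 0.0344 with TGF-β (adjusted p = 0.0319). The latter was -0.034 (adjusted p = 0.410) with scaling by library size alone and was not called without WT-TGF 1 (0.079, adjusted p = 0.0981), WT-TGF 2 (0.077, adjusted p = 0.108) or KO-TGF 3 (0.088, adjusted p = 0.0644). The former was called without WT-SD 2 (0.12, adjusted p = 0.0144) or KO-SD 2 (0.099, adjusted p = 0.0353).

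Pdgfd, whose D chain binds receptor β, was the ligand that fell. It had 20.1, 21.0 and 17.1 CPM in WT-SD, 13.8, 12.3 and 12.3 in WT-TGF, 6.57, 5.12 and 5.64 in KO-SD and 2.68, 2.99 and 2.73 in KO-TGF. Each group lay apart from the others, and both KO groups lay under both WT groups. With TGF-β Pdgfd fell by 0.60 ± 0.0807 on the log2 scale in WT (adjusted p = 8.82e-08) and by 1.04 ± 0.147 in KO (adjusted p = 1.94e-07). The responses differed by -0.44 ± 0.170 (95% interval -0.79 to -0.092), which did not pass the threshold (adjusted p = 0.0565) and did without WT-SD 2 (-0.51, adjusted p = 0.0297) or KO-SD 2 (-0.52, adjusted p = 0.0277). Against WT it was lower in KO by 1.75 ± 0.0943 in SD (adjusted p = 3.09e-16) and by 2.19 ± 0.125 with TGF-β (adjusted p = 1.18e-15), the latter a 4.55-fold difference.

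The mixture of ligand RNA therefore differed between the groups, as the stacked plot of ligand RPKM shows. The sum over the 4 ligands was 66.0 ± 1.62 RPKM in WT-SD (SD, n = 3), 121.6 ± 1.88 in WT-TGF, 68.0 ± 2.08 in KO-SD and 126.3 ± 1.92 in KO-TGF. The sums of the genotypes overlapped in SD (64.3 to 67.5 against 65.6 to 69.4 RPKM) and not with TGF-β (120.3 to 123.8 against 124.1 to 127.8). Pdgfb made up 5.37% ± 0.191 of the sum in WT-SD, 13.6% ± 0.288 in WT-TGF, 1.26% ± 0.182 in KO-SD and 6.90% ± 0.169 in KO-TGF. Pdgfc made up 45.9% ± 1.38, 52.8% ± 0.841, 55.6% ± 0.594 and 61.4% ± 0.443 in the same order. Pdgfa went from 39.4% to 30.3% with TGF-β in WT and from 40.4% to 31.0% in KO. Pdgfd made up 9.31% ± 0.784, 3.33% ± 0.170, 2.69% ± 0.278 and 0.703% ± 0.0343. An exact permutation test of 3 against 3 libraries cannot go below p = 0.1, so these shares are given without a test.

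**Figure D2:**
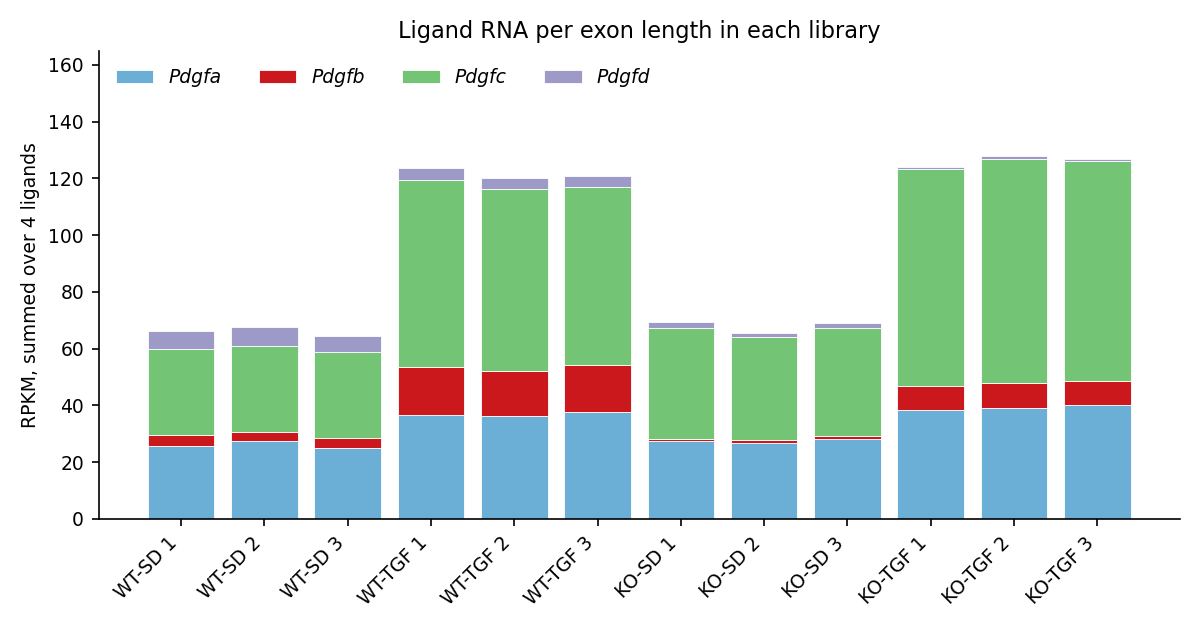
RPKM of the 4 ligand genes, stacked for each of the 12 libraries on a linear axis from 0. The sum is 64.3 to 69.4 RPKM in the 6 SD libraries and 120.3 to 127.8 in the 6 TGF-β libraries. The Pdgfb and Pdgfd layers are thinner in KO than in WT, and Pdgfc is the tallest layer in every library.

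Pdgfrb, the receptor for the B and D chains and a marker of mesangial cells and pericytes, was the most abundant receptor RNA and varied little. Its libraries had 293, 287 and 285 CPM in WT-SD, 382, 383 and 385 in WT-TGF, 297, 308 and 313 in KO-SD and 355, 356 and 364 in KO-TGF. The 4 groups did not overlap, and the TGF-β libraries were higher in both genotypes. The log2 fold change with TGF-β was 0.41 ± 0.0250 in WT (adjusted p = 2.25e-15) and 0.23 ± 0.0251 in KO (adjusted p = 1.97e-09), and the response was smaller in KO by 0.19 (-0.19 ± 0.0354 for the interaction, adjusted p = 0.000150). With scaling by library size alone the response in KO was 0.023 and was not called (adjusted p = 0.411). Pdgfrb was higher in KO-SD than in WT-SD by 0.087 ± 0.0252 (adjusted p = 0.00395), a difference that was 0.012 with library size alone (adjusted p = 0.716). With TGF-β it was lower in KO (-0.098 ± 0.0249, adjusted p = 0.00127), and by more with library size alone (-0.22). The same scaling gave 0.25 for the response in WT.

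Pdgfra, the receptor for the A, B and C chains, had few counts. WT-SD libraries had 76, 73 and 88 counts, WT-TGF libraries 16, 11 and 14, KO-SD libraries 38, 39 and 50, and KO-TGF libraries 3, 3 and 6. In KO-TGF, 2 of the 3 libraries were thus at the 3 counts taken as the limit of detection, which is 0.130 to 0.161 CPM. The groups did not overlap. From the summed counts, Pdgfra was 5.50-fold lower with TGF-β in WT (95% exact binomial interval 3.94 to 7.87, which covers counting error only) and 9.28-fold lower in KO (5.13 to 18.4). In the second fit the log2 fold changes were -2.45 ± 0.220 (adjusted p = 5.28e-28) and -3.18 ± 0.341 (adjusted p = 2.21e-20), and their difference of -0.73 ± 0.497 was not detected (95% interval -1.70 to 0.25, adjusted p = 0.380). Against WT, Pdgfra was 1.79-fold lower in KO-SD (1.44 to 2.24, adjusted p = 3.99e-06) and 3.02-fold lower in KO-TGF (1.56 to 6.31, adjusted p = 0.00130). The second fit took the spread of the counts as known, with 95% intervals from the normal distribution. Its p-values are therefore smaller for a given ratio of change to standard error, and are not compared with those of the first fit.

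Fibroblasts of the interstitium express Pdgfra strongly, and the 6 fibroblast markers summed to 21.5 to 23.6 CPM in WT-SD, 8.65 to 9.48 in WT-TGF, 78.7 to 80.2 in KO-SD and 24.9 to 25.7 in KO-TGF. The 3 markers that passed the RPKM limit, Dcn, Col14a1 and Ly6a, were all called lower with TGF-β, as Pdgfra was, and all higher in KO-SD than in WT-SD, where Pdgfra was lower. In KO-TGF against WT-TGF, 1 of them was called higher, Dcn with 18.8 against 3.60 CPM, beside 0.924 against 1.08 of Col14a1 and 2.68 against 3.01 of Ly6a. Pi16 and Dpt had more CPM with TGF-β in both genotypes (Pi16 0.194 and 1.26 in WT, 1.26 and 1.95 in KO), and Lum was at 0 in WT-TGF. In RPKM, Pdgfrb exceeded Pdgfra by 130 to 166 times in WT-SD libraries, 925 to 1430 times in WT-TGF, 250 to 311 times in KO-SD and 2111 to 4060 times in KO-TGF, where the counts of Pdgfra limit the precision.

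Pdgfrl, a secreted PDGF receptor-like protein without a kinase domain, responded in opposite directions. It had 12.5, 11.5 and 12.8 CPM in WT-SD and 22.3, 24.8 and 25.4 in WT-TGF, whereas it had 18.3, 19.2 and 18.7 in KO-SD and 15.1, 14.9 and 13.8 in KO-TGF. TGF-β libraries were all higher in WT and all lower in KO. Pdgfrl rose 1.97-fold in WT, by 0.98 ± 0.0669 on the log2 scale with an adjusted p = 4.09e-14, and fell by 0.36 ± 0.0700 in KO (adjusted p = 3.60e-05, and by 0.56 with library size alone), and the responses differed by -1.34 ± 0.0968 (adjusted p = 2.77e-12). It was therefore higher in KO than in WT in SD, by 0.61 ± 0.0699 (adjusted p = 8.44e-09), and lower in KO with TGF-β, by 0.73 (-0.73 ± 0.0670, adjusted p = 8.88e-11).

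**Figure D3:**
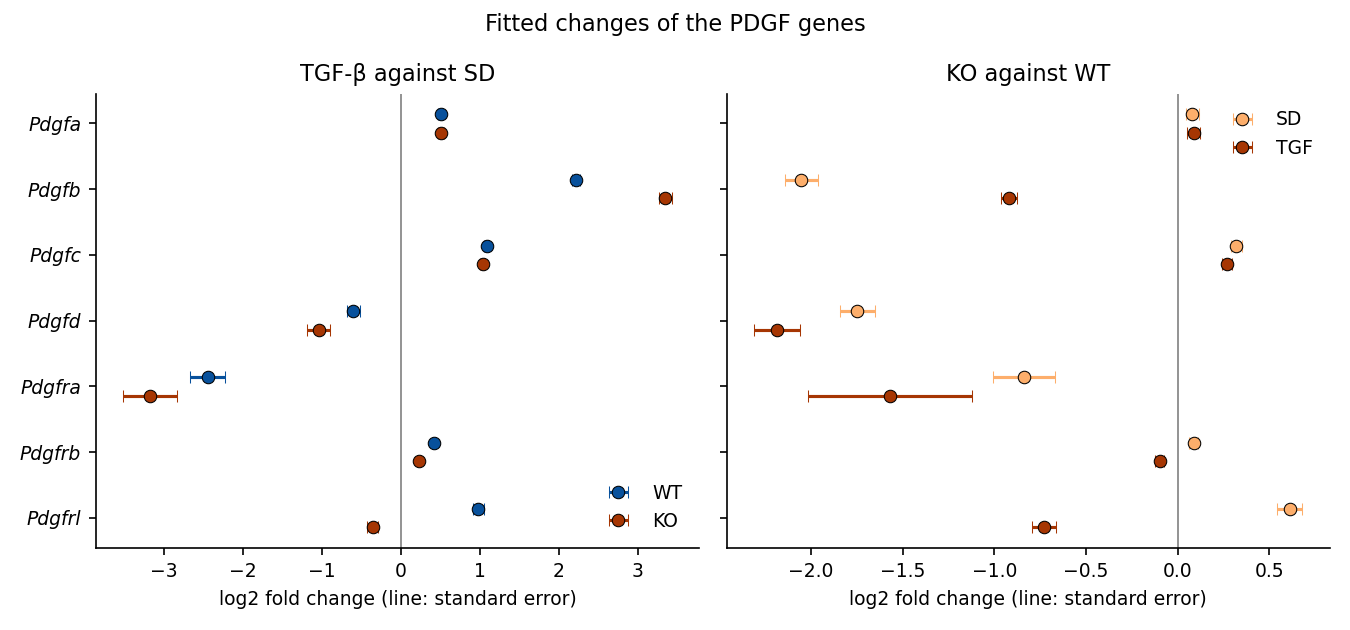
Log2 fold changes of the 7 PDGF family genes from the fits across all genes, with lines for the standard error. The left panel gives TGF-β against SD in WT and in KO, where Pdgfrl lies at 0.98 in WT and -0.36 in KO. The right panel gives KO against WT in SD and with TGF-β, where Pdgfb, Pdgfd and Pdgfra lie under 0 in both.

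Between the genotypes, 6 of the 7 members were called in SD, 3 higher in KO (Pdgfc, Pdgfrb and Pdgfrl) and 3 lower (Pdgfb, Pdgfd and Pdgfra). With TGF-β all 7 were called, 2 higher (Pdgfa and Pdgfc) and 5 lower. Without Pdgfra, which came from the second fit, 2 were lower in SD and 4 with TGF-β. Over all genes tested, 30.9% were called higher and 25.2% lower in KO in SD, and 27.2% and 27.8% with TGF-β. For the interaction, 8.67% of all genes tested had a higher log2 response in KO and 16.6% a lower one. Among the members, 1 was called with a higher response (Pdgfb), 2 with a lower one (Pdgfrb and Pdgfrl) and 4 with neither. Both ligands of receptor β, Pdgfb and Pdgfd, were lower in KO in both conditions, and Pdgfc was higher in KO in both. The comparisons between genotypes share libraries with the TGF-β comparisons.

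Genes whose pattern over the 12 libraries was most like that of a member were found from the root mean square difference of their centred log2 CPM. They are given for the 4 members whose group means span at least 1 on the log2 scale. Nearest to Pdgfb (span 4.27) were Nebl at 0.20, Shank2 at 0.30 and Cd40 at 0.32. Nearest to Pdgfc (span 1.36) were Hspa5 at 0.041, Pdlim7 at 0.041 and Lrrc59 at 0.050. Hspa5 encodes the chaperone BiP of the endoplasmic reticulum. Nearest to Pdgfd (span 2.78) were Serpine2 at 0.12, Pkhd1 at 0.17 and Malrd1 at 0.17, and nearest to Pdgfra (span 3.95) were Wnk4, Kcnma1 and Enpep at 0.28 to 0.30. Serpine2 encodes an inhibitor of serine proteases.

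The proteases that release active PDGF were measured next. Furin, which cuts the A and B chains, had means of 118 and 239.9 CPM in WT-SD and WT-TGF and 116 and 246 in KO-SD and KO-TGF. It rose in both genotypes, by 1.03 ± 0.0284 and 1.08 ± 0.0288 on the log2 scale (adjusted p = 4.72e-24 and 1.46e-24), and KO differed from WT by -0.018 in SD (95% interval -0.079 to 0.044) and by 0.034 with TGF-β (-0.021 to 0.090). With scaling by library size alone both were called lower in KO, at -0.093 (adjusted p = 0.00909) and -0.087 (adjusted p = 0.00654). Pcsk5, a related convertase, had means of 44.4 and 154 CPM in SD and with TGF-β in WT, and of 6.03 and 30.6 in KO. It rose with TGF-β by 1.80 ± 0.0411 in WT and 2.34 ± 0.0752 in KO and was lower in KO by 2.88 ± 0.0688 in SD and 2.34 ± 0.0448 with TGF-β, which in fold was 7.35 and 5.05. Its libraries thus went the way of those of Pdgfb, high with TGF-β and low in KO. Pcsk6 had 44.5, 35.1, 10.7 and 8.09 CPM and was lower with TGF-β and in KO in all 4 comparisons, by 2.06 ± 0.0645 in KO-SD against WT-SD. Pcsk7 had 23.9 to 25.3 CPM in the 4 groups and was not called in any of the 5 comparisons, but was called lower with TGF-β with library size alone (-0.17 in WT, adjusted p = 0.00840, and -0.19 in KO, adjusted p = 0.00335).

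Of the proteases outside the cell, Plat (tissue plasminogen activator, which cuts the C chain) had means of 224 and 273 CPM in SD and with TGF-β in WT, and of 192 and 239 in KO. It rose with TGF-β by 0.28 ± 0.0248 in WT and 0.32 ± 0.0255 in KO, as Pdgfc did, and was lower in KO by 0.22 (-0.22 ± 0.0253) in SD and 0.19 (-0.19 ± 0.0250) with TGF-β, unlike Pdgfc. Plau (urokinase, which cuts the D chain) had 7.99, 6.21, 16.2 and 9.87 CPM. It fell with TGF-β, as Pdgfd did, by 0.37 ± 0.103 in WT and 0.72 ± 0.0845 in KO, and it was higher in KO by 1.02 ± 0.0849 in SD and 0.67 ± 0.102 with TGF-β, where Pdgfd was lower. St14 (matriptase, which also cuts the D chain) was under the RPKM limit, with 5 to 81 counts in a library. In the second fit it was called lower in KO by 1.39 ± 0.203 in SD and 2.16 ± 0.297 with TGF-β.

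Partners of the receptors at the membrane and in the matrix also changed. Cspg4 (NG2, a proteoglycan of pericytes that binds PDGF-AA) had means of 39.7 and 174 CPM in SD and with TGF-β in WT, and of 95.5 and 486 in KO. It rose with TGF-β by 2.14 ± 0.0346 in WT (adjusted p = 5.50e-30) and 2.35 ± 0.0298 in KO (adjusted p = 1.33e-32), and was higher in KO by 1.27 ± 0.0365 in SD and 1.48 ± 0.0280 with TGF-β. Sparc, a matrix protein that binds PDGF chains, had 4750, 6788, 6905 and 9289 CPM and was higher with TGF-β and in KO, by 0.43 to 0.54 on the log2 scale in the 4 comparisons. Nrp1, a co-receptor, had 794, 815, 753 and 528 CPM. It fell with TGF-β in KO by 0.51 ± 0.0231 (adjusted p = 1.08e-18) and not in WT, where it differed by 0.038 (95% interval -0.0085 to 0.084, adjusted p = 0.134), and the responses differed by -0.55 ± 0.0324 (adjusted p = 2.60e-14). With library size alone the WT difference of Nrp1 was -0.12 (adjusted p = 1.43e-05). It was called higher with a limit of CPM >1 in at least 3 libraries (0.057, adjusted p = 0.0273) and with no filter (0.068, adjusted p = 0.00816).

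Lrp1, an endocytic receptor that joins signaling of receptor β, had 3855, 4514, 3960 and 4299 CPM and rose with TGF-β by 0.23 ± 0.0223 in WT and 0.12 ± 0.0223 in KO, the latter being -0.086 with library size alone. Slc9a3r1 and Slc9a3r2 encode the NHERF scaffolds that bind the tail of receptor β. Slc9a3r1 was lower with TGF-β and in KO in all 4 comparisons, by 0.26 to 0.30. Slc9a3r2 had 41.3, 42.9, 23.1 and 17.3 CPM, and was lower in KO by 0.84 (-0.84 ± 0.0509) in SD and 1.31 (-1.31 ± 0.0553) with TGF-β. Its response differed between the genotypes by -0.47 ± 0.0767 (adjusted p = 1.86e-05).

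**Figure D4:**
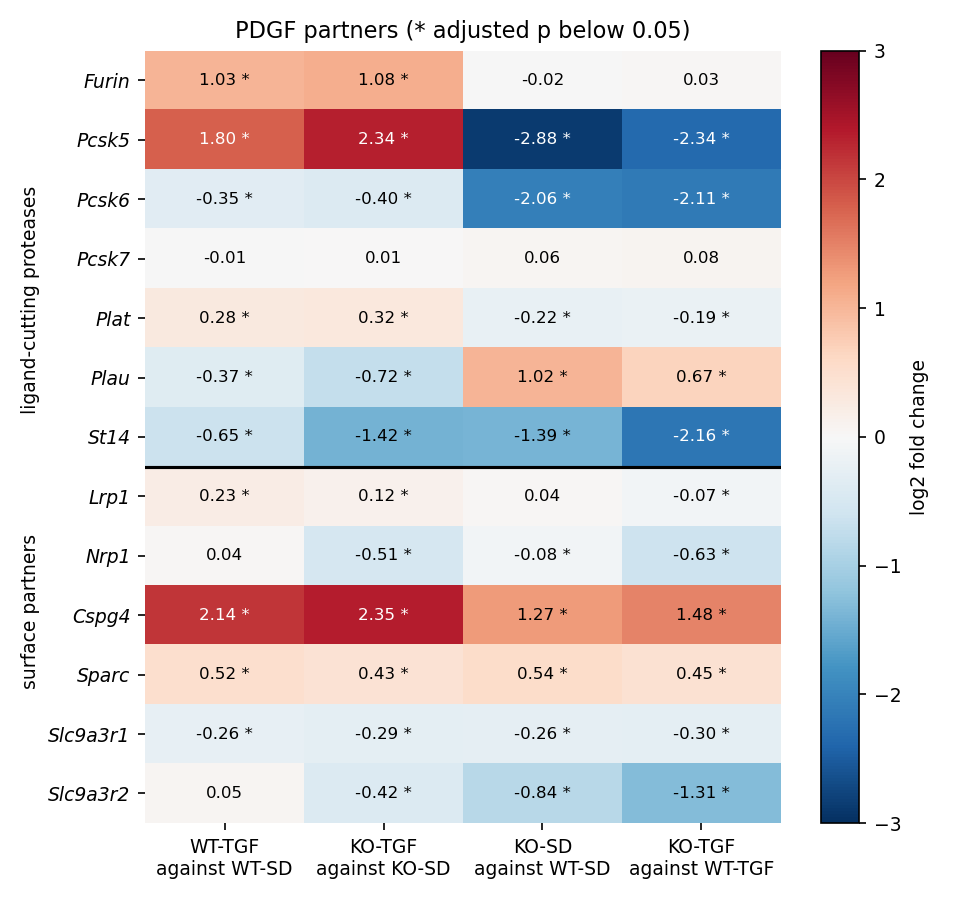
Log2 fold changes of 7 proteases that can release PDGF chains (upper block) and 6 partners of the receptors (lower block) in the 4 comparisons between groups, as colour and number, with a star where the adjusted p was under 0.05. Pcsk5 lies at -2.88 and -2.34 and Cspg4 at 1.27 and 1.48 in KO against WT.

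The pathway was read over 62 genes, the 13 partners and 49 genes that act after the receptors. With TGF-β in WT, 28 of the 60 that passed the RPKM limit were called higher and 21 lower, and in KO 25 and 23. Of all genes tested, 36% were called higher and 36.4% lower in WT, and 34.9% and 39.1% in KO. The medians were 0.062 and 0.040 on the log2 scale, beside -0.0049 and -0.025 over all genes tested. KO against WT gave 21 higher and 19 lower in SD and 21 higher and 23 lower with TGF-β. The medians were 0.011 and 0.018, beside 0.019 and -0.0036 over all genes. The shares of all genes called higher and lower were 30.9% and 25.2% in SD and 27.2% and 27.8% with TGF-β. The interaction called 10 higher and 11 lower, beside 8.67% and 16.6% of all genes tested. With scaling by library size alone these counts were 21 and 30 with TGF-β in WT, 18 and 38 in KO, 14 and 29 for KO-SD against WT-SD, 9 and 32 for KO-TGF against WT-TGF, and 4 and 17 for the interaction.

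The 26 effectors are proteins that bind the receptors and their direct partners, and 25 passed the RPKM limit. Among these 25, 8 were higher and 11 lower with TGF-β in WT and 7 higher and 10 lower in KO. The shares of all genes were 36% and 36.4% in WT and 34.9% and 39.1% in KO. Pik3r1, the regulatory p85 subunit of PI3-kinase, fell by 1.44 ± 0.0321 in WT and 1.85 ± 0.0331 in KO, from 483 to 178 and from 517 to 143 CPM. Pik3cb, a catalytic subunit, rose by 0.84 ± 0.0501 and 0.65 ± 0.0528. Fyn, a kinase of the SRC family, rose by 0.66 ± 0.0320 in WT and 1.38 ± 0.0322 in KO, a larger log2 response in KO by 0.72 ± 0.0456 (adjusted p = 1.43e-13). In SD, 10 effectors were higher and 7 lower in KO, among them Grb10 (0.40 ± 0.0239) and Src (0.24 ± 0.0356) higher and Shb (-0.50 ± 0.0546) and Stat5a (-0.34 ± 0.0634) lower. With TGF-β 7 were higher and 7 lower, with Fyn (0.49 ± 0.0302) and Src (0.39 ± 0.0339) highest. Over all genes tested, 30.9% were higher and 25.2% lower in KO in SD, and 27.2% and 27.8% with TGF-β.

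Of the 15 RAS-ERK and AKT kinases, 9 were higher and 5 lower with TGF-β in each genotype. Among all genes the shares were 36% higher and 36.4% lower in WT and 34.9% and 39.1% in KO. Nras rose by 0.67 ± 0.0278 and 0.75 ± 0.0277 and Map2k1 (MEK1) by 0.67 ± 0.0358 and 0.74 ± 0.0351 in WT and KO. Braf fell by 0.62 ± 0.0353 and 0.46 ± 0.0365, Akt2 by 0.44 ± 0.0434 in WT and Araf by 0.33 ± 0.0403 in KO. In KO against WT, 8 were higher and 4 lower in SD, and 9 and 5 with TGF-β. The shares of all genes were 30.9% and 25.2% in SD and 27.2% and 27.8% with TGF-β. Akt1 was higher by 0.30 ± 0.0262 and 0.28 ± 0.0261 in SD and with TGF-β, and Map2k1 by 0.30 ± 0.0341 with TGF-β. Araf was lower in KO in both conditions (-0.42 ± 0.0373 and -0.44 ± 0.0400), Braf in SD (-0.25 ± 0.0344) and Prkca, a protein kinase C, with TGF-β (-0.25 ± 0.0266).

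The 8 negative regulators are phosphatases and ubiquitin ligases that end receptor signaling. With TGF-β, 5 were higher and 2 lower in WT and 3 higher and 3 lower in KO. Over all genes the shares were 36% higher and 36.4% lower in WT and 34.9% and 39.1% in KO. Ptpn12 rose by 0.48 ± 0.0412 and 0.62 ± 0.0416 and Cbl by 0.43 ± 0.0442 and 0.56 ± 0.0442, in WT and KO. Ptprj, a receptor-type phosphatase, fell by 0.29 ± 0.0380 in WT, and Cblb fell by 0.27 ± 0.0365 in KO. In KO against WT none was higher and 2 were lower in SD, Ptprj (-0.30 ± 0.0380) and Cblb (-0.096 ± 0.0349). With TGF-β 2 were higher and 4 lower, with Cbl at 0.19 ± 0.0429 and Cblb at -0.30 ± 0.0364. The shares of all genes were 30.9% higher and 25.2% lower in SD and 27.2% and 27.8% with TGF-β. The Cblb call in SD was lost with no filter (-0.068, adjusted p = 0.118) and without WT-SD 1, KO-SD 2 or KO-SD 3 (-0.087, -0.080 and -0.084, adjusted p = 0.0715, 0.0763 and 0.0692), and that of Cbl with library size alone (0.066, adjusted p = 0.181).

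The 16 genes known to be switched on by growth factors such as PDGF also respond to TGF-β and to other signals. Of the 15 that passed the RPKM limit, 11 rose with TGF-β in each genotype, and 3 fell in WT and 4 in KO. Over all genes, 36% rose and 36.4% fell in WT, and 34.9% and 39.1% in KO. The medians of the list were 1.26 and 0.98 on the log2 scale. Has2 (hyaluronan synthase) rose by 3.96 ± 0.0690 and 3.87 ± 0.0684 and Egr2 by 3.64 ± 0.0513 and 3.58 ± 0.0499. Cxcl1, a chemokine, fell by 1.62 ± 0.0451 in WT and 3.02 ± 0.0633 in KO, and Ccl7 by 1.14 ± 0.0336 and 1.32 ± 0.0382. In KO against WT, 5 were higher and 7 lower in SD and 3 higher and 9 lower with TGF-β, with medians of -0.024 and -0.38. The shares of all genes were 30.9% higher and 25.2% lower in SD and 27.2% and 27.8% with TGF-β. Ptgs2 (cyclooxygenase-2) was higher in KO by 0.95 ± 0.0465 and 0.997 ± 0.0383 and Egr3 by 0.85 ± 0.0943 and 0.41 ± 0.0736, and Cxcl1 was lower by 0.89 (-0.89 ± 0.0425) and 2.29 (-2.29 ± 0.0676). For the interaction, none of the list had a higher response in KO and 6 had a lower one, beside 8.67% and 16.6% of all genes.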

How the data were processed

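Counts were deposited by the authors, 1 whole number per RefSeq gene and library, from single-end reads of mRNA libraries aligned to mm10 with TopHat and counted with HTSeq-count, strand-specific, without normalization or a filter on genes. Reads outside annotated exons (10.3% to 15.4%), on overlapping genes (0.225% to 0.274%) and with several alignments (11.2% to 11.7%) were left out of library sizes and tests. In WT the share outside annotated exons was 15.2% to 15.4% in SD and 12.2% to 12.5% with TGF-β. In KO it was 12.7% to 13.4% in SD and 10.3% to 10.9% with TGF-β. The part of this difference in the results was not tested. The counts on genes, 19898050 to 22827706 per library, limit precision mainly for Pdgfra.

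Counts were normalized by TMM (factors 0.898 to 1.10) over the 11528 genes with RPKM >1 in at least 1 library, with exon-union lengths from GENCODE vM21, and tested with edgeR 4.0.16 (R 4.3.3) by the quasi-likelihood test in 1 fit of all 12 libraries. There were 5 contrasts: the TGF-β response of WT, that of KO, the genotypes in SD, the genotypes with TGF-β, and the interaction (the log2 response in KO minus that in WT). The script was tested on simulated data. Replicate libraries differed by more than sampling noise in each of the 12 pairs (chi-square per degree of freedom 1.32 to 5.12), so all were kept. Coordinates are those of RefSeq genes on GRCm38.p6.

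The members and lists were chosen with earlier results of these data known. The genes named are the 7 members, all ligand-cutting proteases and surface partners, and in each other list and comparison up to 2 called genes with the largest positive and 2 with the largest negative log2 fold change, no overlap of libraries and 5 CPM or more in the group with the higher mean, plus the 3 genes nearest in pattern to each member whose group means span at least 1. A few genes that this rule names are not reported here. Pdgfra and St14, under the RPKM limit, were tested in a second fit of every gene with any count, with the same TMM factors. That fit took the spread as known, so its p-values are not comparable with those of the first fit. The alternatives were library size alone, DESeq2 1.42.0, a limit of CPM >1 in at least 3 libraries, no limit, fits of the compared groups alone, a replicate block and each library left out.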

Additional observations from a re-analysis of the deposited data

Results flagged for a closer look

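These genes had a log2 response to TGF-β that differed between WT and KO by edgeR's quasi-likelihood test of the interaction (FDR below 5%), and each value is the response in KO minus that in WT. Of the members, Pdgfb was at 1.13, Pdgfrb at -0.19 and Pdgfrl at -1.34. For Pdgfrl, all WT-TGF libraries lay above all WT-SD libraries, and all KO-TGF libraries below all KO-SD libraries. Pdgfb had the larger log2 response but the smaller gain in CPM in KO. Of the proteases and partners, Pcsk5 was at 0.54, Cspg4 at 0.21, Nrp1 at -0.55, Slc9a3r2 at -0.47, Lrp1 at -0.11 and Sparc at -0.087. The calls of Lrp1 and Sparc were lost with DESeq2 (adjusted p = 0.101 and 0.137) and without KO-TGF 1, 2 or 3 (adjusted p = 0.205, 0.158 and 0.130 for Lrp1, at -0.063, -0.073 and -0.075, and 0.421, 0.266 and 0.0999 for Sparc, at -0.033, -0.049 and -0.064). Of the genes acting after the receptors, Fyn was at 0.72, Stat5a at 0.44, Akt2 at 0.21 and Braf at 0.16, and Pik3r1 was at -0.41, Grb10 at -0.39, Prkca at -0.22 and Cblb at -0.20. That of Braf was lost with library size alone (0.11, adjusted p = 0.0854) and without WT-SD 1, WT-TGF 2, WT-TGF 3, KO-SD 2 or KO-SD 3 (0.13 to 0.15, adjusted p = 0.0502 to 0.0711), and that of Akt2 with library size alone (0.16, adjusted p = 0.0562). Of the growth-factor response genes, Myc was at -0.50 and Cxcl1 at -1.40. Of the related ligands and receptors, Csf1 was at 0.54, Vegfa at 0.37, Vegfd at -0.69 and Flt1 at -0.80. That of Vegfd was lost with DESeq2 (-0.65, adjusted p = 0.0531) and without WT-TGF 2, KO-TGF 2 or KO-TGF 3 (-0.57, -0.62 and -0.56, adjusted p = 0.133, 0.0637 and 0.0950).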

How the results depend on the processing

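Over the 5 comparisons, 600 of 623 values of the members under an alternative kept their direction and side of the threshold, 6 were no longer called, 9 became called and 8 changed sign. Of 267 counts of called genes 262 stayed within 1.5 times. The others all came from library size alone: 38 pathway genes lower with TGF-β in KO, 29 lower in KO-SD, 9 higher in KO-TGF, and 4 higher and 17 lower for the interaction. With the replicate number as a block (replicate block), 7, 7, 6, 7 and 4 members were called, the 4 because the Pdgfd interaction passed (-0.44, adjusted p = 0.0349). Same-numbered libraries did not deviate together (r from -0.044 to 0.085 over 18 pairs). The Pdgfd interaction also passed with library size alone (-0.49) and with no filter (-0.46). Pdgfa in KO-SD against WT-SD was called with the CPM filter (0.093) and with no filter (0.11), and Pdgfrb there was not called with only the groups compared (0.068, adjusted p = 0.0567). The sign changed with library size alone for Pdgfa in KO-TGF against WT-TGF (-0.034), for Nrp1 (-0.12) and Slc9a3r2 (-0.11) with TGF-β in WT, for Pcsk7 (-0.19) and Lrp1 (-0.086) with TGF-β in KO, for Pcsk7 (-0.016) and Lrp1 (-0.037) in KO-SD, for Ptpn12 (-0.016), Furin (-0.087) and Pcsk7 (-0.039) in KO-TGF against WT-TGF, and for the interactions of Pdgfa (-0.039), Pcsk7 (-0.023) and Plat (-0.012). It changed with the CPM filter for Pcsk7 with TGF-β in WT (0.0064), and with no filter for the same (0.017), for Furin in KO-SD (0.011) and for the Pdgfa interaction (-0.0092). With each library left out, values ran from -0.032 to 0.060 for the Pdgfa interaction, -0.078 to 0.00081 for Pdgfc, -0.12 to 0.0095 for Pcsk6, -0.014 to 0.099 for Pcsk7 and -0.070 to 0.072 for Slc9a3r1, from -0.031 to 0.019 for Pcsk7 with TGF-β in WT and -0.027 to 0.069 in KO, and from -0.039 to 0.0022 for Furin in KO-SD. Only the groups compared gives no separate value for the interaction. The cause of these differences was not tested. A count of 3 in a library, 0.130 to 0.161 CPM, is the limit of detection for Pdgfra.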

Other observations

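Relatives of the PDGF family with the same receptor class or fold were measured beside it. Of the 16 genes listed, 15 were counted and 8 passed the RPKM limit. Among these 8, 3 were higher and 4 lower with TGF-β in WT and 5 higher and 3 lower in KO. The shares of all genes were 36% and 36.4% in WT and 34.9% and 39.1% in KO. Vegfa, the main endothelial growth factor, rose from 152 to 334 CPM with TGF-β in WT and from 188 to 537 in KO, by 1.14 ± 0.0274 and 1.51 ± 0.0269 on the log2 scale. Vegfd encodes a VEGF that, like the C and D chains, is cut outside the cell. It fell with TGF-β as Pdgfd did, by 3.19 ± 0.132 and 3.88 ± 0.102. Vegfd was higher in KO-SD than in WT-SD by 1.39 ± 0.0682, where Pdgfd was lower. Vegfb fell by 1.43 ± 0.0695 and 1.68 ± 0.0722. Vegfc rose by 1.04 ± 0.0686 in WT and 0.55 ± 0.0643 in KO, from 10.7 to 21.9 and from 16.2 to 23.8 CPM, and was higher in KO-SD than in WT-SD by 0.61 ± 0.0724. Flt1, a VEGF receptor, rose in WT by 1.13 ± 0.0535 and was lower in KO by 0.82 (-0.82 ± 0.0679) in SD and 1.62 (-1.62 ± 0.0591) with TGF-β. Csf1, the ligand of a receptor related to Pdgfrb, was lower in KO-SD by 0.59 (-0.59 ± 0.0228). KO against WT called 3 higher and 3 lower in SD and 3 higher and 1 lower with TGF-β, and the interaction 3 in each direction. Over all genes tested the shares were 30.9% and 25.2% in SD and 27.2% and 27.8% with TGF-β. For the interaction they were 8.67% higher and 16.6% lower.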
